A study of Mus musculus with 8 samples.

Results

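The genes described here are the receptor chains and the pair of Janus kinases through which T cells read the common gamma chain cytokines. They are 9 genes, taken by symbol from a table of 36811 Ensembl gene models: Il2ra, Il2rb, Il2rg, Il4ra, Il7r, Il15ra, Il21r, Jak1 and Jak3. All 9 were found and all 9 passed the filter on low values. RNA was sequenced from regulatory T (Treg) cells of the spleen, sorted as Foxp3-GFP positive cells of C57BL/6 mice aged 12 to 13 weeks. The tested population was Bach2-RFP LO and was set against Bach2-RFP HI, with 4 libraries of each, labelled F1, F2 (female), M1 and M2 (male). Every library came from the same genotype, Foxp3EGFP-DTR Bach2tdRFP/+, so all mice carried the diphtheria toxin receptor with GFP at Foxp3 and the red reporter on 1 Bach2 allele, and no library without the reporters was analysed here. The labels do not say whether libraries came from separate animals, or whether LO F1 and HI F1, for example, share an animal, so the p-values reflect spread among libraries that may be technical. All values are FPKM, fragments scaled for length of transcript and for sequencing depth, but how the depth was scaled is not stated. Levels of different genes are compared per length here, and they depend on gene models that are not stated either.

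Common gamma chain cytokines bind receptors that share the chain encoded by Il2rg. The alpha chains Il2ra (CD25) and Il15ra raise the affinity for interleukin-2 and interleukin-15, and both cytokines signal through Il2rb with Il2rg. Il4ra, Il7r and Il21r each pair with Il2rg to form the receptors for interleukin-4, interleukin-7 and interleukin-21. Jak3 binds the common gamma chain and Jak1 the partner chain, and together they activate STAT factors. Treg cells depend on interleukin-2 and are known for high CD25 with low interleukin-7 receptor.

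In LO cells 2 of the 9 genes fell and 0 rose. Mean Il2ra in HI cells was 2.73 times its mean in LO cells, and for Il4ra the factor was 1.91. The shared chain Il2rg, the interleukin-2 and interleukin-15 signalling chain Il2rb, and the chains Il7r, Il15ra and Il21r did not pass the test, nor did Jak1 and Jak3. The 2 genes called make 22.2% of the 9, while 8.29% of all 11260 genes tested were called between LO and HI cells (limma, Benjamini-Hochberg adjusted p below 0.05), with 4.65% of the tested genes higher and 3.64% lower in LO. The members and the gene lists named below were chosen with earlier results of these data known, so such shares do not test the family. No member rose even at an unadjusted p below 0.05. The median log2 difference of the 9 genes was 0.01, against -0.03 for all genes tested.

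The 2 genes that fell each lie beside another member that did not pass. In the RefSeq order of protein-coding genes Il2ra and Il15ra are neighbours on chromosome 2, and Il4ra and Il21r on chromosome 7. Of the others, Il2rb and Il7r lie on chromosome 15, Jak1 on 4, Jak3 on 8 and Il2rg on X. The windows of 250 bases before to 50 bases after an annotated start are shown for both pairs because their members differ in what the test found. They are from RefSeq on build GRCm38.p6, plus strand, which is not the build of the deposited values. Capitals mark the letters TGACTCA (AP-1, also the core of elements bound by Bach factors) or GTAAACA (Foxo) or their reverse complements, wherever a search of both strands found them.
Il2ra, chr2:11642542-11642841: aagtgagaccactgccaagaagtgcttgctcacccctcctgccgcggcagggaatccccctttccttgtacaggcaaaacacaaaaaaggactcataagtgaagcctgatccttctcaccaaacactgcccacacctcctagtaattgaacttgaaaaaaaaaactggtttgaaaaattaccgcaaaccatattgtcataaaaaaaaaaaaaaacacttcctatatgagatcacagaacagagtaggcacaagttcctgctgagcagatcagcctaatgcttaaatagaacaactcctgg
Il15ra, chr2:11705462-11705761: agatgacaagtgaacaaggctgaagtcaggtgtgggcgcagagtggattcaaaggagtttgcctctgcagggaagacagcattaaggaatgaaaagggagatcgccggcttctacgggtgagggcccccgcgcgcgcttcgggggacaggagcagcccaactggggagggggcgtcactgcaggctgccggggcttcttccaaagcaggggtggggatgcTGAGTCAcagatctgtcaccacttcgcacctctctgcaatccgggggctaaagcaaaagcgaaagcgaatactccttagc
Il4ra, chr7:125552021-125552320: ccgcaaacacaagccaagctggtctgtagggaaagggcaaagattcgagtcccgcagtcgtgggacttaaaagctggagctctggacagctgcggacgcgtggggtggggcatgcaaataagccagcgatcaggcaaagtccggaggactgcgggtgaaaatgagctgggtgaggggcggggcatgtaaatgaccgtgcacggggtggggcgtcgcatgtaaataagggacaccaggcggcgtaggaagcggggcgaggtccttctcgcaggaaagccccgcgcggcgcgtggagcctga
Il21r, chr7:125603179-125603478: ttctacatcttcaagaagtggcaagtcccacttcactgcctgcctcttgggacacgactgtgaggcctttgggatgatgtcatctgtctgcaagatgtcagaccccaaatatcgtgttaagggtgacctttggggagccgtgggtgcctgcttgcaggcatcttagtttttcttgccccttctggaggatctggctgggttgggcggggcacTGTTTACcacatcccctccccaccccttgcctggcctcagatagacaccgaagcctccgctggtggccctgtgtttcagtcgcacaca

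Neither promoter of the genes that fell holds any of the 3 motifs searched, the third being TTCNNNGAA (STAT). The AP-1 letters occur in 1 of the 2 Il15ra windows, 30 bases before the start, and in 5.20% of the 32851 promoter windows of the table. The Foxo letters occur in Il21r, 38 bases before the start, and in 3.65% of all windows. The STAT letters occur among these genes in Il7r, 142 bases before the start, and in 8.30% of all windows. The pair of promoters that fell differ in composition: Il2ra has 42.7% GC and 3 CpG sites, and Il4ra has 62.0% GC and 25 CpG sites, where the medians of all windows are 52.7% and 7. Of the 9 genes, 8 had a window in the table. A match of letters is a description of the window and not of binding.

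Il2ra (ENSMUSG00000026770), the interleukin-2 receptor alpha chain, was at 26.6, 34.6, 22.2 and 27.5 FPKM in the LO libraries F1, F2, M1 and M2. In the HI libraries it was at 70.8, 88.6, 69.6 and 73.2 FPKM in the same order of labels. Every LO library lay below every HI library, and the highest LO value, 34.6, was below the lowest HI value, 69.6. The means were 27.7 ± 5.13 FPKM in LO and 75.6 ± 8.83 FPKM in HI cells (SD, n = 4 each). On the log2(FPKM + 1) scale LO lay below HI, the difference being -1.42 (SE 0.186, 95% interval -1.84 to -1.01; limma, adjusted p = 0.00149). These and all later log2 differences are LO minus HI on that scale. The exact two-sided permutation test gave p = 0.0286, and no smaller value is possible with groups of 4. Il2ra stood at percentile 63.0 of the tested genes by mean FPKM in LO cells and at percentile 82.6 in HI cells. With only the libraries numbered 1 or only those numbered 2, splits made after the data were seen, 2 LO against 2 HI libraries gave -1.49 and -1.36 (limma, adjusted p = 0.0859 and 0.0663). In sorted bulk RNA, fewer cells that express a gene and less RNA per cell cannot be told apart.

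Il4ra (ENSMUSG00000030748), the chain that binds interleukin-4, was at 90.7, 83.3, 59.9 and 92.3 FPKM in LO F1, F2, M1 and M2. It was at 143, 154, 149 and 178 FPKM in the HI libraries. The groups did not overlap, and LO M1 was the lowest LO library. The means were 81.6 ± 14.9 FPKM in LO and 156 ± 15.5 FPKM in HI cells, with a log2 difference of -0.94, a standard error of 0.174 and an interval of -1.33 to -0.55 (limma, adjusted p = 0.00855). The exact permutation test again gave p = 0.0286. In the libraries numbered 1 alone and 2 alone the differences were -0.97 and -0.91 (limma, adjusted p = 0.194 and 0.0957). Of the 11260 tested genes 15.1% had groups that did not overlap, and of the 9 members it was these 2.

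Il4ra is also a receptor of B cells, and some B cell markers moved with it. Of 7 B cell markers, 6 were tested, 3 were lower in LO cells and 0 higher, while Cd79b, Cd22 and Blk did not pass (limma, adjusted p = 0.367, 0.80 and 0.449). The summed FPKM of the 7 ranged from 69.3 to 103 in LO and from 143 to 229 in HI libraries. Cd79b, which did not pass, made up most of the LO sums, at 59.9 to 92.4 FPKM. In HI libraries Cd79b was at 77.8 to 119 FPKM. Cd79a, a chain of the B cell receptor, was at 5.81, 4.64, 4.75 and 3.24 FPKM in LO and at 45.6, 39.6, 73.1 and 37.2 FPKM in HI libraries. Ms4a1 fell too. Pax5, a B cell lineage factor that did not pass the filter on low values, was listed at 0 in the 4 LO libraries. In HI F1, F2, M1 and M2 it was at 3.55, 0.931, 0 and 1.45 FPKM. The part of these cells in the Il4ra difference was not tested.

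**Figure D1:**
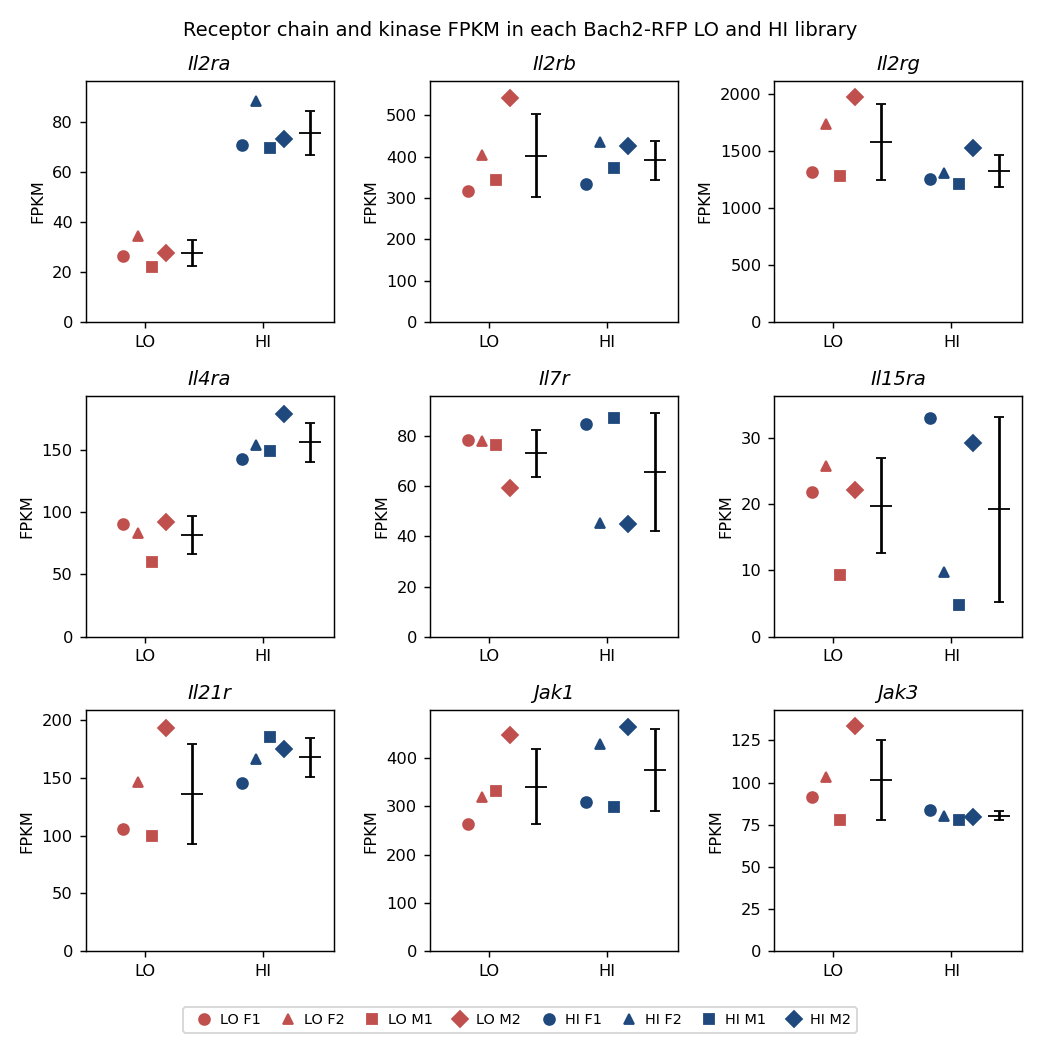
FPKM of the 9 genes in each library, LO left of HI, with symbols for the labels F1, F2, M1 and M2 and the mean with SD (n = 4) in black. The LO libraries lie wholly below the HI libraries for Il2ra (at most 34.6 against at least 69.6) and Il4ra (at most 92.3 against at least 143), while the other 7 genes overlap.

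Il2rb (ENSMUSG00000068227), the beta chain shared by the interleukin-2 and interleukin-15 receptors, was at 317, 405, 344 and 543 FPKM in LO and at 334, 434, 372 and 427 FPKM in HI libraries. The ranges overlapped, and LO M2 was the highest of the 8. The log2 difference was 0.01 with a 95% interval of -0.40 to 0.42 (limma, adjusted p = 0.978), an interval that holds no change as large as that of Il2ra. Its sign turned when LO M2, HI F1 or HI M1 was left out.

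Set beside each other in the same library, the alpha and beta chains of the interleukin-2 receptor stood in ratios that did not overlap between the populations. Per length there was 11.9, 11.7, 15.5 and 19.7 times as much Il2rb as Il2ra RNA in LO F1, F2, M1 and M2. In the HI libraries it was 4.72, 4.90, 5.34 and 5.83 times as much. The share of Il2ra beside Il2rb was lowest in LO M2, and a ratio of FPKM values within a library does not depend on how that library was scaled. As the difference in log2(FPKM + 1), Il2ra minus Il2rb, the means were -3.80 ± 0.352 in LO and -2.36 ± 0.135 in HI cells (SD, n = 4 each). This is a description and was not tested.

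Il2rg (ENSMUSG00000031304), the common gamma chain itself, had the highest level of the 9 genes in every library. It was at 1313, 1737, 1282 and 1970.2 FPKM in LO and at 1254, 1303, 1209.8 and 1523 FPKM in HI libraries. It stood at percentile 99.3 of the tested genes in LO and at percentile 98.9 in HI cells. The log2 difference of 0.23 had an interval of -0.14 to 0.60 (limma, adjusted p = 0.479; exact permutation p = 0.2). Under quantile normalization the difference was 0.66 (limma, adjusted p = 0.0816).

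**Figure D2:**
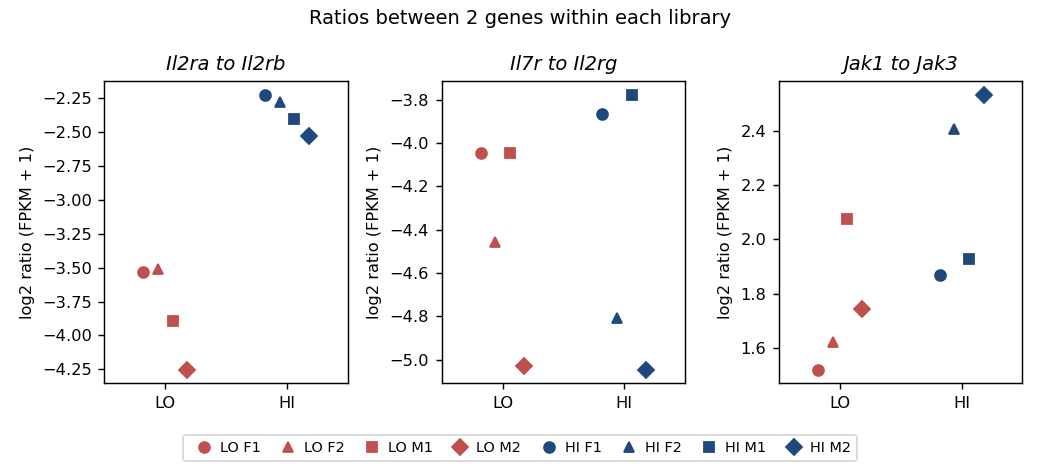
Difference in log2(FPKM + 1) within each library for Il2ra to Il2rb, Il7r to Il2rg and Jak1 to Jak3, LO left of HI, with symbols for the labels. The Il2ra to Il2rb difference lies between -4.25 and -3.51 in LO libraries and between -2.53 and -2.22 in HI libraries, and the other differences overlap.

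Il7r (ENSMUSG00000003882), the interleukin-7 receptor alpha chain, was at 78.6, 78.1, 76.6 and 59.3 FPKM in LO F1, F2, M1 and M2. In HI libraries it was at 84.9, 45.5, 87.3 and 45.1 FPKM. The HI libraries fell into a higher pair numbered 1 and a lower pair numbered 2, and the LO values lay between them. The overall log2 difference was 0.21 with an interval of -0.36 to 0.79 (limma, adjusted p = 0.705). Within the libraries numbered 1 it was -0.15, and within those numbered 2 it was 0.58. A test of the difference between the numbers gave an unadjusted p of 0.0414 and an adjusted p of 0.748 (limma interaction over all genes). The labels do not say what the numbers stand for. Beside Il2rg in the same library, the difference in log2(FPKM + 1), Il7r minus Il2rg, had means of -4.40 ± 0.466 in LO and -4.38 ± 0.647 in HI cells (SD, n = 4 each).

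Il15ra (ENSMUSG00000023206), the interleukin-15 receptor alpha chain, had the lowest mean level of the 9 genes and the widest interval. It was at 21.8, 25.8, 9.34 and 22.2 FPKM in LO and at 33.0, 9.82, 4.79 and 29.3 FPKM in HI libraries. The lowest and the highest of the 8 values were both in HI libraries. The log2 difference of 0.30 had an interval of -0.98 to 1.57 (limma, adjusted p = 0.824), and its sign turned without HI M1. Il2ra, its neighbour on chromosome 2, had a fall past the threshold, but the difference between the 2 genes was not tested.

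Il21r (ENSMUSG00000030745), the interleukin-21 receptor, was at 105, 146, 99.5 and 193 FPKM in LO and at 145, 166, 185 and 174 FPKM in HI libraries. LO F1 and LO M1 lay below all HI libraries, LO F2 inside their range and LO M2 above it. The log2 difference was -0.35 with an interval of -0.83 to 0.14 (limma, adjusted p = 0.411). It was -0.67 in the libraries numbered 1 and -0.02 in those numbered 2. Il21r is used by B cells as well, of whose 6 tested markers 3 were lower in LO and 3 did not pass, and their part was not tested.

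Neither Janus kinase passed the test. Jak1 (ENSMUSG00000028530) was at 264, 320.0, 331 and 448 FPKM in LO and at 309, 429.8, 298 and 465 FPKM in HI libraries, with a log2 difference of -0.14 and an interval of -0.60 to 0.32 (limma, adjusted p = 0.768). Jak3 (ENSMUSG00000031805) was at 91.2, 103, 77.9 and 133 FPKM in LO and at 83.7, 80.4, 77.6 and 79.6 FPKM in HI libraries, with a log2 difference of 0.31 and an interval of -0.10 to 0.71 (limma, adjusted p = 0.38). Jak3 varied little among HI libraries, with an SD of 2.55, and more among LO libraries, with an SD of 23.6, where LO M2 was highest. Per length there was 2.89 to 4.25 times as much Jak1 as Jak3 RNA in LO and 3.68 to 5.84 times as much in HI libraries.

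**Figure D3:**
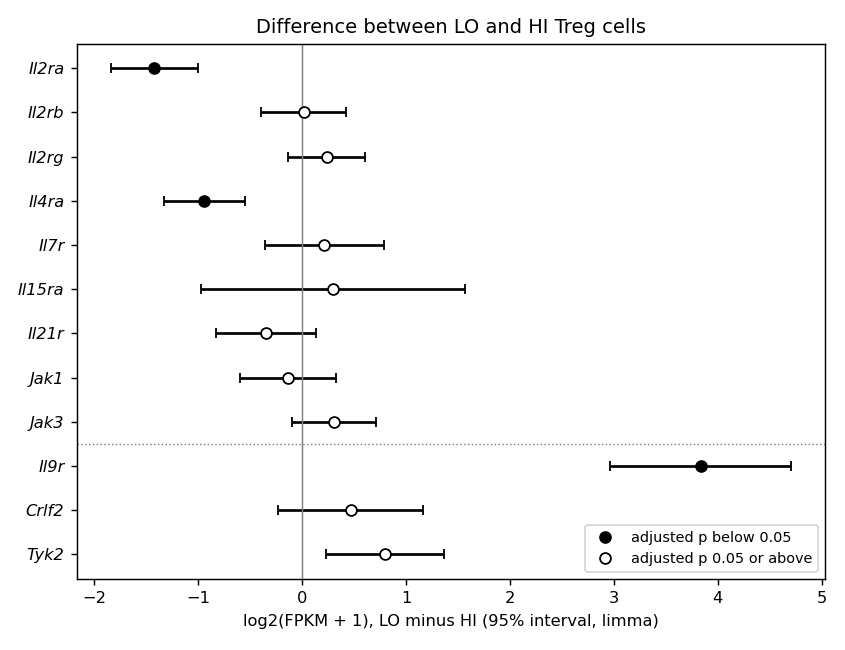
Difference in log2(FPKM + 1), LO minus HI, with its 95% interval from limma, for the 9 genes above the dotted line and for Il9r, Crlf2 and Tyk2 below it. Filled points have an adjusted p below 0.05: Il2ra at -1.42, Il4ra at -0.94 and Il9r at 3.84.

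The order of levels was nearly the same in both populations. In LO cells it ran Il2rg, Il2rb, Jak1, Il21r, Jak3, Il4ra, Il7r, Il2ra and Il15ra, from means of 1576 to 19.8 FPKM. In HI cells it ran Il2rg, Il2rb, Jak1, Il21r, Il4ra, Jak3, Il2ra, Il7r and Il15ra, from means of 1322 to 19.2 FPKM. In LO cells the values of neighbours in the order overlapped except between Il2rg and Il2rb, between Jak1 and Il21r and between Il7r and Il2ra. In HI cells they overlapped except between Il2rg and Il2rb, Jak1 and Il21r, Il4ra and Jak3, and Il7r and Il15ra. Il2ra thus overlapped Jak3 and Il7r in HI cells, and Il15ra in LO cells.

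No effect of sex on the LO and HI difference was called among the 9 genes. The interaction of sex and reporter level, female minus male, was called for 0 of 9 with limma, and 0 of 9 had an unadjusted p below 0.05. Over all genes 2 of 11260, or 0.0178%, were called and 431 had an unadjusted p below 0.05. Il2ra differed by -1.36 in females and -1.49 in males, and Il4ra by -0.76 in females and -1.12 in males, as log2 differences of 2 against 2 libraries. On simulated data this test recovered 23.0% of genes with a log2 interaction of 3 and 0% of those with 1.

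Of 3 further receptor chains and the kinase Tyk2, 3 genes were tested and 1 rose, while 8.29% of all genes tested were called. Il9r (ENSMUSG00000020279), the interleukin-9 receptor alpha chain that also pairs with Il2rg, was at 24.0, 26.0, 13.9 and 15.8 FPKM in LO libraries. It was listed at 0 in HI F1 and HI M2, at 0.699 in HI F2 and at 1.40 in HI M1. The lowest LO value was well above the highest HI value, and the log2(FPKM + 1) difference was 3.84 (SE 0.39; limma, adjusted p = 0.000508). In the libraries numbered 1 alone and 2 alone it was 3.64 and 4.03 (limma, adjusted p = 0.0932 and 0.0437). Crlf2, which pairs with Il7r as the receptor for thymic stromal lymphopoietin, was at 34.6 to 77.5 FPKM in LO and 25.3 to 61.7 FPKM in HI libraries (limma, adjusted p = 0.449). Tyk2, a Janus kinase that serves other cytokine receptors, was at 21.4 to 40.8 FPKM in LO and 13.2 to 20.8 FPKM in HI libraries without overlap (limma, adjusted p = 0.0953). Il13ra1, the other partner of Il4ra, was at most 1.25 FPKM in LO and 2.17 FPKM in HI libraries and was not tested.

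The ligands were near the bottom of the table. None of the 8 ligand genes passed the filter on low values, and Il9, Il13 and Tslp were listed at 0 in all 8 libraries. Il2 was at 1.55, 1.55, 0 and 0.720 FPKM in LO libraries and at 1.99 FPKM in HI M1 with 0 in the other HI libraries. A value of 0 in this table can be a failed estimate.

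**Figure D4:**
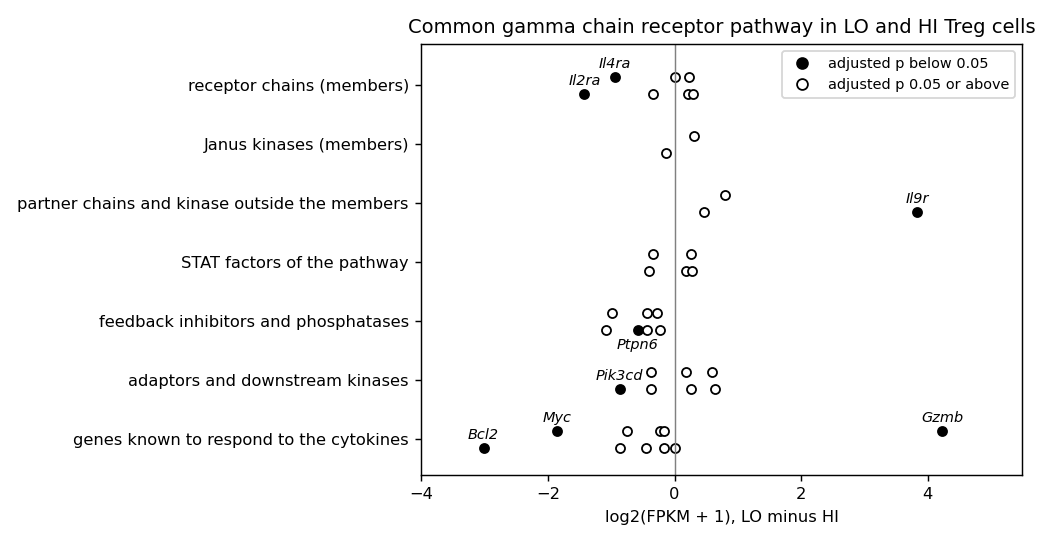
Difference in log2(FPKM + 1), LO minus HI, for each tested gene of the receptor pathway by list, with filled points for adjusted p below 0.05 (limma). Il2ra, Il4ra, Ptpn6, Pik3cd, Bcl2 and Myc lie to the left of 0, Il9r and Gzmb to the right, and no STAT gene is filled.

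Of 43 pathway genes outside the 9, 32 were tested, 2 rose, 4 fell and 26 did not pass. Of all 11260 genes tested 4.65% rose and 3.64% fell. The median log2 difference of the 32 genes was -0.25, against -0.03 for all genes tested. Of 5 STAT genes 0 were called with limma, and 0 had an unadjusted p below 0.05. Stat3 averaged 239 ± 47.9 FPKM in LO and 198 ± 22.4 FPKM in HI cells (limma, adjusted p = 0.439).

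Among 7 feedback inhibitors and phosphatases 1 fell and 0 rose, and at an unadjusted p below 0.05 the counts were 4 lower and 0 higher. Of all 11260 genes tested 8.29% were called, and 2354 had an unadjusted p below 0.05 in either direction (limma). Ptpn6, the phosphatase SHP-1, was at 168, 218, 165 and 235 FPKM in LO and at 301, 269, 291 and 301 FPKM in HI libraries (limma, adjusted p = 0.0452). That call was kept in 5 of 18 alternatives other than those by library number and was lost when any library other than LO M2 was left out. Cish, a feedback inhibitor induced through STAT5, was at 118 to 231 FPKM in LO and 139.7 to 289.6 FPKM in HI libraries (limma, adjusted p = 0.709). Ptpn2, a phosphatase of Janus kinases and STAT factors, averaged 45.9 ± 3.05 FPKM in LO and 62.9 ± 10.9 FPKM in HI cells (limma, adjusted p = 0.199). Socs1 and Socs3, inhibitors of Janus kinase signalling named here after their values were seen, had groups that did not overlap but missed the threshold. Socs1 was at 24.2 to 35.8 FPKM in LO and 40.1 to 110.4 FPKM in HI libraries (limma, adjusted p = 0.0715). Socs3 was at 17.99 to 31.0 FPKM in LO and 39.1 to 94.2 FPKM in HI libraries (limma, adjusted p = 0.0538). In the 18 alternatives other than those by library number, Socs1 passed the threshold in 2 and Socs3 in 5.

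Among 9 adaptors and downstream kinases 7 were tested, 1 fell and 0 rose, while 8.29% of all genes tested were called. Pik3cd, the delta catalytic subunit of phosphoinositide 3-kinase, was at 46.4, 49.9, 56.4 and 58.6 FPKM in LO and at 77.8, 102, 97.2 and 114 FPKM in HI libraries. The groups did not overlap, and the log2 difference was -0.87 (SE 0.17; limma, adjusted p = 0.0115). In the libraries numbered 1 alone and 2 alone it was -0.75 and -0.98 (limma, adjusted p = 0.265 and 0.0963). Pik3cd and Ptpn6 are abundant in B cells too, of whose 6 tested markers 3 were lower in LO, and the part of those cells was not tested. Its regulatory partner Pik3r1 was at 69.7 to 137 FPKM in LO and 90.0 to 187 FPKM in HI libraries (limma, adjusted p = 0.518). Shc1, an adaptor bound by the interleukin-2 receptor beta chain, was at 48.4 to 90.5 FPKM in LO and 41.4 to 72.6 FPKM in HI libraries (limma, adjusted p = 0.745).

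Of 10 genes known to respond to these cytokines 1 rose and 2 fell, while 8.29% of all genes tested were called. The rise was in Gzmb and the falls were in Bcl2 and Myc, in that order with log2 differences of 4.23, -3.02 and -1.86 (limma, adjusted p = 5.04e-05, 0.000527 and 0.000485). Ccnd2 and Ccnd3, the D-type cyclins of lymphocytes, did not pass (limma, adjusted p = 0.0955 and 0.684). Foxp3 was at 10.5 to 19.8 FPKM in LO and 13.3 to 15.2 FPKM in HI libraries (limma, adjusted p = 0.985).

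The genes with a pattern most like that of Il2ra were Pdlim1, Cd9 and Ssbp2. The search covered 7747 other tested genes with a mean of at least 5 FPKM. Only protein-coding, long intergenic RNA and antisense genes were kept. Predicted and unnamed genes, genes named Rpl or Rps, and T cell receptor and immunoglobulin segments were left out. Over the 8 libraries the centred log2 values of Pdlim1, Cd9 and Ssbp2 lay nearest to those of Il2ra. Their root mean square differences from it were 0.159, 0.171 and 0.18. Pdlim1, an adaptor protein of the actin cytoskeleton, was at 47.0, 61.6, 51.3 and 60.7 FPKM in LO and at 157, 155, 151 and 133 FPKM in HI libraries. Cd9, a membrane tetraspanin, was at 51.8, 78.8, 59.1 and 77.8 FPKM in LO and at 147, 187, 173 and 155 FPKM in HI libraries. Ssbp2, a transcriptional cofactor, was at 25.3 to 35.8 FPKM in LO and 66.9 to 83.4 FPKM in HI libraries.

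The sort and the depth bear on these values. Bach2, on which cells were sorted, was at 0.447 to 0.894 FPKM in LO and 8.62 to 20.7 FPKM in HI libraries. The labelled cell type was checked on 6 T and Treg cell markers, with Ctla4 and Ikzf2 higher in LO and 0 lower. They summed to 4988 to 6976 FPKM in LO and 4486 to 5468 FPKM in HI libraries. Cd3g made up most of that sum, at 4069 to 5687 FPKM in LO and 3823 to 4440 FPKM in HI libraries. The sum thus says little about Foxp3, at means of 14.7 FPKM in LO and 14.2 FPKM in HI cells. Of 4 tested markers of CD8 T and NK cells Eomes and Klrd1 were lower in LO and 0 were higher. The list summed to 26.6 to 38.5 FPKM in LO and 50.1 to 67.2 FPKM in HI libraries. Cd8b1, which did not pass, made up most of that sum (limma, adjusted p = 0.119). Of 5 tested markers of myeloid and plasmacytoid dendritic cells Csf1r and Siglech were lower and 0 were higher at the adjusted threshold. The list summed to 42.0 to 145 FPKM in LO and 70.8 to 204 FPKM in HI libraries. Most of that sum was Lyz2, which did not pass (limma, adjusted p = 0.661). In that list Itgam had the opposite sign, at means of 3.28 FPKM in LO and 1.04 FPKM in HI cells (limma, adjusted p = 0.181, unadjusted p = 0.031). Of 3 tested plasma cell markers 1, Jchain, was higher, and it made up most of the list's sum of 52.2 to 169 FPKM in LO and 14.9 to 28.2 FPKM in HI libraries. The other two did not pass and had differences of opposite sign, with Mzb1 at means of 4.95 FPKM in LO and 9.66 FPKM in HI cells and Sdc1 at 3.83 FPKM in LO and 1.20 FPKM in HI cells. The calls of Ikzf2, Eomes and Klrd1 were lost when LO F2 was left out, and not only then. In alternatives other than those by library number, Ikzf2 kept its call in 13 of 18 and Eomes in 14 of 17. Klrd1, whose groups overlapped, kept its call in only 6 of 17. The part of these other cell types in the results was not tested. Relative depth, with HI F1 as 1, ran from 0.636 in HI M1 to 5.27 in LO M2, and LO M2 had the highest LO value of 6 of the 9 genes. Without LO M2 and HI M1, Il2ra and Il4ra remained called.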

How the data were processed

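RNA of Foxp3-GFP positive Treg cells was sequenced after SmartSeq2 library preparation, per the labels' protocols. Per the submitters' processing notes, FastQC, cutadapt and HISAT2 were used with builds NCBIM37 and mm9. The deposited table holds FPKM values and is named for Cuffnorm; its versions, annotation, scaling and strand handling are not stated in the labels or header. The unit holds no counts, so absolute depth is unknown; relative depth came from the steps between low values. Symbols were matched to 31840 of 36811 gene IDs. Genes with at least 1 FPKM in at least 4 libraries were tested with limma 3.58.1 (R 4.3.3) on log2(FPKM + 1), which understates changes of low genes, with a variance trend and Benjamini-Hochberg adjustment over all genes tested. On simulated data it recovered 93% of log2 changes of 3 and 26% of changes of 1. Single genes also had a two-sided exact permutation test. Named were the 9 genes, per list up to 4 called genes and the 2 most abundant others, markers, and the 3 profiles nearest to the most significant member that fell. Some genes this rule names are not reported here. The members and lists were chosen with earlier results of these data known. The series also describes another experiment, not used here.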

Additional observations from a re-analysis of the deposited data

Results flagged for a closer look

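Il7r in LO M2 stood apart from the other LO libraries. It was at 59.3 FPKM there, and the gap to the nearest LO library was 0.897 of the range of the LO group. Of 18 groups of 4 libraries tested this was the 1 flag found, and chance flags about 1 in 20 groups.

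The Il7r difference between LO and HI libraries was also compared between library numbers, where only the unadjusted p fell below 0.05. The log2 difference in libraries numbered 1 minus that in libraries numbered 2 was -0.73, with an unadjusted p of 0.0414 and an adjusted p of 0.748 in the limma interaction over all genes. This comparison was chosen after the data were seen.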

How the results depend on the processing

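Il2ra and Il4ra were called in 18 of 18 alternatives other than those by library number, with log2 differences of -1.53 to -1.33 and of -1.03 to -0.80 (limma, adjusted p at most 0.0119 and 0.0279), and also with library number as a covariate. They lost their calls with only the libraries numbered 1 or 2, where 20 and 209 genes were called (limma), against 934 with all libraries. In the other alternatives 642 to 1032 genes were called. The sex interaction called 1 gene with no filter on low values and 1 to 2 genes when a library was left out, and the number interaction 0 (743 at an unadjusted p below 0.05). The cause of these changes was not tested, but the splits by number hold fewer libraries.

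The labels were not taken as pairs, since none says that LO and HI libraries are paired, and a block by label was the alternative. Deviations of same-label libraries correlated at 0.0522 (F1), 0.0149 (F2), 0.0699 (M1) and 0.113 (M2), all above 0. Of the HI libraries F1, M1 and M2 correlated best with the LO library of their own label, and HI F2 with LO F1. Correlations this small cannot decide whether the libraries are paired. With the label as a replicate block 771 genes were called for LO against HI, 698 of them among the 934, and 3 for the sex interaction. Il2ra and Il4ra kept their calls under the block (limma, adjusted p = 0.00557 and 0.0181), and Ptpn6 and Ikzf2 did not (0.0752 and 0.0605).

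Differences that turned sign were all of genes not called. When a library was left out, Il2rb ranged from -0.14 to 0.12, Il15ra from -0.19 to 0.66, Foxp3 from -0.13 to 0.15, Cd22 from -0.64 to 0.083 and Shc1 from -0.0063 to 0.34. Without LO M2 and HI M1, Il2rb was -0.16, Il15ra -0.27 and Ccnd3 0.057. In the libraries numbered 1, Il2rb was -0.094, Il7r -0.15 and Stat3 -0.077, and in those numbered 2 Foxp3 was -0.26 and Cd22 0.081. Depth is unknown, and the 4 libraries of a group set the precision.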
